A study of Mus musculus with 25 samples.

Results

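The 9 genes described here encode regulators of the actin cytoskeleton and of focal adhesions: Fscn1, Actn1, Flna, Fhl2, Fblim1, Tns1, Myh9, Tagln and Acta2. They were chosen by name from the results of the same 21 RNA libraries, out of 24061 genes in the count table. Their RNA levels and fold changes are therefore given as a description, with no p-value printed for a single one of them. Counts of calls among them in the main fits stand beside the share of all genes. A gene of the 9 named as called passed a threshold in libraries that chose it, so the call is no test of that gene. For other settings that share is not given, and nothing is read from those counts. Open chromatin played no part in that choice. Other genes of the pathway, measured in the same libraries and listed with earlier results known, are given with their tests. All 9 genes passed the filter on low counts in every set of libraries.

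Actin filaments are pulled by myosin and anchored at focal adhesions, plaques where integrins bind the extracellular matrix. Bundling and crosslinking proteins set the form of the filament network, while LIM-domain and tensin adaptors link integrins to it. In skin, keratinocytes that move into a wound rebuild this network and their adhesions, and squamous cell carcinoma cells do so when they invade. Many genes of the network are targets of serum response factor (Srf), a transcription factor that binds the CArG box.

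The study compared stem cells of mouse skin at rest, after wounding and in tumours. All RNA came from female B6 mice labelled P60, and cells were sorted by flow cytometry. In the set named CL, with 2 libraries a group, hair follicle stem cells (HFSC) were lineage-negative, integrin alpha 6 high, CD34+ and Sca1-, and epidermal stem cells (EpdSC) were CD34- and Sca1+. The wounded CL groups came from Sox9CreER;R26-YFP mice, in which Cre driven by Sox9 marks the hair follicle lineage with YFP. The wounded HFSC lineage was sorted as YFP+ and the wounded EpdSC as YFP-, both integrin alpha 6 high, so that the wound and the sort gate changed together. The set named BK held 2 HFSC libraries, 2 EpdSC libraries and 1 library of wounded EpdSC, sorted without a YFP gate. The set named DS held 6 libraries of GFP+ cells from grafted tumours, 1 each of high and low integrin alpha 6 from tumours labelled HRas (an oncogene), HRas TbrKO and TbrKO. It also held resting cells labelled Tbr, sorted as HFSC (1 library) and as EpdSC (1 library). Open chromatin was measured by ATAC-seq in 4 pooled samples of female mice of mixed CD1/B6 strain: HFSC and EpdSC of P50 back skin, integrin alpha 6 and beta 1 high tumour cells of HRas carcinomas, and Sca1+ cells of wounds.

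The labels do not spell out Tbr. The TGF-beta receptor gene Tgfbr2 was counted at 198 and 224 CPM, counts scaled to a common library size, in the HRas tumours, 213 and 228 in the HRas TbrKO tumours and 455 and 187 in the TbrKO tumours. A count over the whole gene does not test for the loss of an exon, so these values check nothing about the label.

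Promoter sequence from RefSeq on GRCm38.p6 was held for 8 of the 9 genes. The stretches below are shown because the RNA of Fhl2 and Fblim1 was low at rest and high in the CL wounds and in tumours. They were not chosen by open chromatin, and not all of them lay in a peak (below). Each runs 5′ to 3′ on the gene's strand over the 150 bases before a listed start, and the capitals mark a motif. The first is the upstream Fhl2 start (minus strand, chr1:43196762-43196911), the second the downstream Fhl2 start (minus strand, chr1:43163962-43164111) and the last the upstream Fblim1 start (minus strand, chr4:141606053-141606202).
Fhl2 upstream start: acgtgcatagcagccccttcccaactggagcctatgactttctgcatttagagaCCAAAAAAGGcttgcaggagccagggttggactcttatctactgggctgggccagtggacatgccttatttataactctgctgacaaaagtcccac
Fhl2 downstream start: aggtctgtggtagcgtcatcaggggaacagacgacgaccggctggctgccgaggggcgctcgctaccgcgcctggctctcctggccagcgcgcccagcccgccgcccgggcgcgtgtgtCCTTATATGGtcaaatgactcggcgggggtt
Fblim1 upstream start: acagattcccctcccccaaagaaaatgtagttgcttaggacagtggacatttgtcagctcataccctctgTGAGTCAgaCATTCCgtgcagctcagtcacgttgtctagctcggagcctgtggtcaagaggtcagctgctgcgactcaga

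Both strands of the 300-base windows around the listed starts (250 bases before to 50 after) were searched for 3 motifs. The CArG box was taken in its strict form, CCWWWWWWGG, where W is A or T. The CArG box lay in both Fhl2 windows, 96 to 87 bases before the upstream start and 31 to 22 before the downstream one, and in 2 of the 10 windows of the 9 genes. It lay in 1.5% of the 21263 windows of all genes. Stretches with another base among the W positions were not counted. The Acta2 window holds such stretches, CCCTATATGG and CCTTGTTTGG, so its lack of a strict match does not show that it lacks the box. The letters TGANTCA, which AP-1 binds, were found in 1 of the 10 windows, that of Fblim1 at 80 to 74 bases before its start, and in 7.0% of all windows. The letters GGAATG, which TEAD factors bind, were found in 3 of the 10 windows (Fblim1, Acta2 and Flna, with the Fblim1 match on the other strand as CATTCC) and in 13.6% of all. The 2 Fhl2 starts lie inside the span of the gene, whose longest transcript begins further upstream.

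Library totals ran from 14216472 to 36425082 counts, so that 1 CPM stood for at least 15.6 reads. The summed level of 6 keratinocyte markers ran from 19850 to 148100 CPM and all 6 were detected in every library. Markers of other cell types moved with some groups. The sum of 6 immune markers was 2677 to 3388 CPM in the wounded EpdSC of CL, against at most 102 in the unwounded CL libraries and 26.2 to 32.4 in the wounded HFSC lineage. The sum of 8 fibroblast markers was 742 to 779 CPM in the wounded EpdSC of CL, against 45.2 to 82.1 at rest and 16.0 to 26.3 in the wounded HFSC lineage. Single genes carried much of these sums. In wounded EpdSC of CL Cd74 alone was at 3179 and 2352 CPM. Thy1 was at 79.3 and 57.1 CPM in resting EpdSC of CL and at 93.1 and 86.3 in wounded EpdSC. Between the same groups Col1a1 went from 0.545 and 0.578 CPM to 248 and 257. In bulk libraries a change in the share of a cell type and a change of RNA per cell cannot be told apart. The labels do not say whether the libraries of a group came from separate mice, so the p-values below measure only the spread between these libraries.

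The LIM-domain adaptors Fhl2 and Fblim1 were close to absent at rest in CL and abundant after wounding in both lineages. Fhl2 (chr1:43123071-43198343) encodes an adaptor that shuttles between adhesions and the nucleus. Its level was 1.92 and 1.16 CPM for HFSC, 0.210 and 0.321 for EpdSC, 208 and 195 for the wounded HFSC lineage, and 239 and 210 for wounded EpdSC. No wounded library overlapped a resting one. The log2 fold change was 7.01 ± 0.31 (SE) for the HFSC lineage and 9.73 ± 0.38 for EpdSC. The larger value for EpdSC went with a lower level at rest, since the 2 wounded groups differed by -0.15 ± 0.24. In the tumours Fhl2 stood at 141 to 187 CPM in the 4 HRas-bearing libraries and at 84.7 and 92.3 in TbrKO. BK gave 10.8 and 5.93 CPM for HFSC, 7.81 and 1.21 for EpdSC and 34.2 for wounded EpdSC, a wounded level far below those of CL. The order of levels ran from resting EpdSC of CL, through the other resting groups, BK wounded EpdSC, TbrKO tumours and HRas-bearing tumours, to the CL wounds. Within this order the resting HFSC and EpdSC of BK overlapped, and the 2 wounded CL groups were next to each other.

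Fblim1 (chr4:141576062-141606052) encodes migfilin, which binds filamin at adhesions. Its level was 1.92 and 1.50 CPM for HFSC, 0.210 and 0.321 for EpdSC, 72.7 and 74.1 for the wounded HFSC lineage, and 63.2 and 81.6 for wounded EpdSC. The wounded groups overlapped each other and neither overlapped a resting group. The fold change was 5.40 ± 0.27 on the log2 scale in the HFSC lineage and 8.10 ± 0.34 in EpdSC. The tumours gave 56.7 to 103 CPM, a range that holds all 4 wounded CL libraries. BK wounded EpdSC stood at 7.04 CPM, just below 1 of the 2 HFSC libraries of BK (4.49 and 7.06) and above the 2 EpdSC libraries (3.55 and 1.02).

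Tns1 ran the other way. It encodes tensin 1 (chr1:73910232-74124548), which ties integrin tails to actin in stable adhesions. Its level was 499 and 459 CPM in HFSC and 326 and 283 in EpdSC of CL. It was 3.43 and 3.68 CPM for the wounded HFSC lineage, with 5.58 and 5.75 for wounded EpdSC. The log2 fold change was -7.08 ± 0.23 and -5.76 ± 0.21, and the groups did not overlap. BK gave 757 and 615 CPM for HFSC, 378 and 342 for EpdSC and 30.6 for wounded EpdSC. The 6 tumour libraries lay between 8.82 and 36.5 CPM, while HFSC and EpdSC labelled Tbr stood at 376 and 167. Every resting library was thus above every wound and tumour library, and HFSC were above EpdSC in each of the 3 sets.

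**Figure D1:**
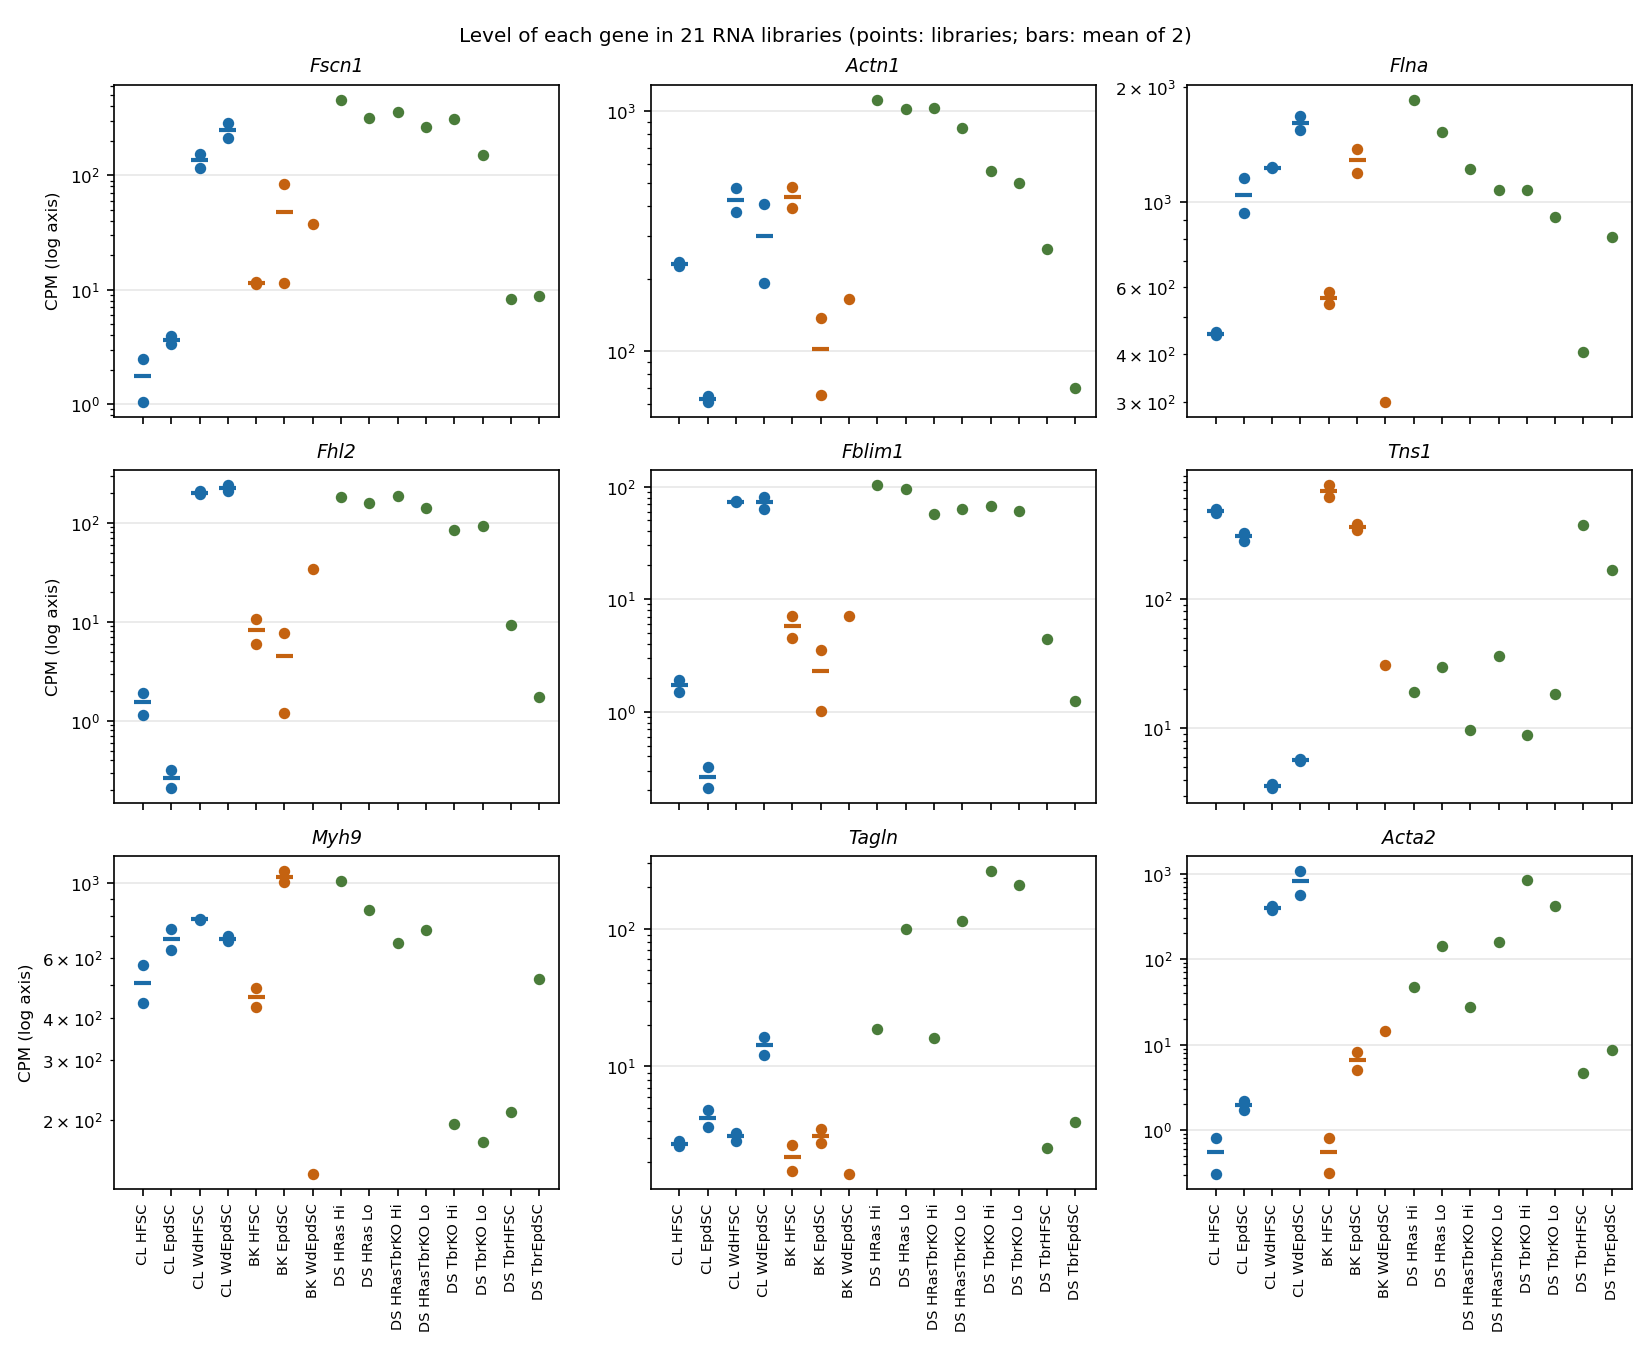
CPM on a log axis (y) in each of the 15 groups (x), 1 panel a gene, where points are the 21 libraries and bars the mean of the groups with 2 libraries. Fhl2 and Fblim1 are below 11 CPM in every resting library and above 56 in every CL wound and tumour library, and Tns1 shows the opposite order.

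Among the bundling and crosslinking genes, the fascin gene Fscn1 (chr5:142960355-142973189), which packs filaments into the tight bundles of filopodia, had the widest range. It stood at 1.04 and 2.46 CPM for HFSC of CL, 3.35 and 3.92 for EpdSC, 116 and 155 for the wounded HFSC lineage, and 210 and 285 for wounded EpdSC. The log2 fold changes of 6.28 ± 0.47 and 6.08 ± 0.46 were nearly the same, so that the gap between the lineages at rest was kept after wounding. Tumours gave 150 to 459 CPM, and in each of the 3 genotypes the high integrin library was above the low one. BK did not show the same picture: its 2 EpdSC libraries stood at 84.0 and 11.4 CPM, on either side of the wounded library at 37.8. The BK wound difference of Fscn1, -0.39 ± 1.00, thus came to 1.66 without EpdSC library 1 and -1.29 without EpdSC library 2.

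Actn1 (chr12:80167542-80260420) encodes alpha-actinin 1, which crosslinks filaments in stress fibres and at adhesions. At rest it was higher in HFSC, at 235 and 226 CPM, than in EpdSC, at 64.8 and 61.0. After wounding it stood at 379 and 476 CPM in the HFSC lineage and at 192 and 408 in EpdSC, where the 2 libraries differed by more than in the other 3 CL groups. The log2 fold change was 0.88 ± 0.34 in the HFSC lineage and 2.25 ± 0.35 in EpdSC. BK repeated the order at rest, with 483 and 394 CPM in HFSC against 137 and 65.6 in EpdSC. The HRas-bearing tumours held 850 to 1116 CPM and the TbrKO tumours 560 and 499, all above the CL wounds.

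Flna (chrX:74223461-74249854) encodes filamin A, which joins filaments into an orthogonal net. It was lower in HFSC of CL, at 456 and 448 CPM, than in EpdSC, at 1159 and 934. The wounded HFSC lineage stood at 1226 and 1236 CPM, and wounded EpdSC at 1684 and 1544. On the log2 scale the change was 1.43 ± 0.19 in the HFSC lineage and 0.61 ± 0.19 in EpdSC. In BK the wounded library went the other way, at 299 CPM against 1380 and 1194 in EpdSC. The tumours lay between 912 and 1855 CPM.

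Of the genes of contraction, Acta2 (chr19:34240336-34255585), the smooth muscle alpha-actin gene used as a mark of myofibroblasts, had the largest fold change of the 9 in the wounded HFSC lineage. It was at 0.799 and 0.308 CPM for HFSC of CL, 1.72 and 2.19 for EpdSC, 416 and 377 for the wounded HFSC lineage, and 1068 and 563 for wounded EpdSC. This came to a log2 fold change of 9.42 ± 0.54 in the HFSC lineage and 8.70 ± 0.51 in EpdSC. In BK wounded EpdSC it reached 14.6 CPM, against 8.26 and 5.01 in EpdSC. In the tumours it was 47.3 (high integrin) and 142 CPM (low) in HRas, 27.5 and 160 in HRas TbrKO, and 847 and 415 in TbrKO.

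Markers of other cell types moved in both directions in the wounded HFSC lineage. The 8 smooth muscle and pericyte markers summed to 97.3 to 112 CPM there, against 57.3 to 112 at rest, and Notch3 alone made up 96.4 and 111 of those CPM. The defining muscle genes were at or near 0: Des and Myocd had no read in either library, and Myh11 was at 0.0347 and 0.0758 CPM. The fibroblast sum was lower there than at rest (above): Col1a1 and Col1a2 were called lower, while Dcn, at 1.25 and 0.607 CPM, was called higher. Of the immune markers Cd74, Cd207 and Cd3e were called lower, and Lyz2 (2.29 and 3.11 CPM) and Itgam (4.85 and 3.94 CPM) higher. The 5 endothelial markers summed to 5.96 and 6.22 CPM against 0.385 and 1.35 in HFSC, with Pecam1 and Tie1 called higher and Kdr lower. The part of these cells in the Acta2 level of the wounded HFSC lineage was not tested. In wounded EpdSC all 8 fibroblast markers were detected and the immune sum was high, and their part in the Acta2 level of that group was not tested. Acta2 shares long near-identical stretches with other actin genes. How reads that match several of them were counted is not given in the sources used here. In the wounded HFSC lineage Actg2 stood at 0.493 to 0.624 CPM, Acta1 at 0.190 to 0.381 and Actc1 at 0.

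Tagln (chr9:45929628-45936058) encodes SM22, an actin-binding protein of smooth muscle. Unlike Acta2 it stayed near its resting level in the wounded HFSC lineage, at 3.29 and 2.88 CPM against 2.87 and 2.62. It was higher in wounded EpdSC of CL, at 12 and 16.4 CPM against 3.60 and 4.82, in the group where fibroblast and immune markers were also high. The log2 fold changes were 0.16 ± 0.31 and 1.75 ± 0.31. In tumours Tagln was 18.5 (high integrin) and 99.2 CPM (low) in HRas, 16.0 and 114 in HRas TbrKO, and 262 and 206 in TbrKO. The fibroblast sum followed the integrin gate, at 916 to 2189 CPM in the 3 high libraries and 5622 to 11420 in the 3 low ones. Tagln did so in the 2 HRas-bearing genotypes but not in TbrKO, and the part of stromal RNA in these levels was not tested.

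Myh9 (chr15:77760585-77842175), the heavy chain of nonmuscle myosin IIA, stayed within a narrow range in CL. It stood at 443 and 571 CPM for HFSC, 734 and 636 for EpdSC, 780 and 786 for the wounded HFSC lineage, and 696 and 674 for wounded EpdSC. The log2 fold change was 0.62 ± 0.20 in the HFSC lineage and -0.01 ± 0.20 in EpdSC. The EpdSC value depends on gene length: median fold changes in that comparison were 0.55 for genes below the lower quartile of gene span and -0.77 for genes above the upper quartile, and without this trend Myh9 came to 0.79. Against this narrow range, BK wounded EpdSC stood at 138 CPM, below the 1085 and 1007 of EpdSC. The TbrKO tumours, at 195 and 171 CPM, were below the 666 to 1016 of the HRas-bearing tumours. Resting HFSC labelled Tbr, at 211 CPM, were also below the HFSC of CL and BK (431 to 571).

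**Figure D2:**
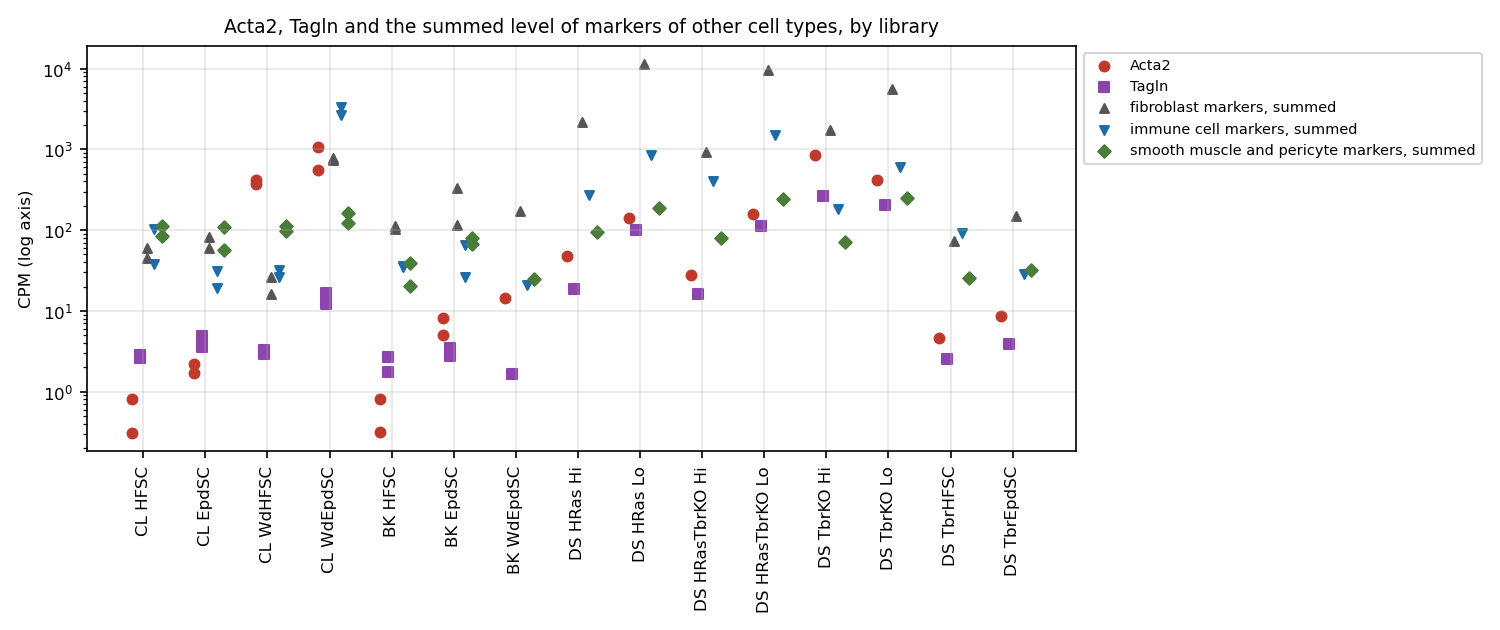
CPM on a log axis (y) of Acta2, Tagln and the summed markers of 3 other cell types in each library, by group (x). In the wounded HFSC lineage Acta2 is at 377 to 416 CPM while Tagln and the fibroblast and immune sums stay below 33, and in the tumours the fibroblast sum is higher in each low integrin library than in its high integrin partner.

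The share of the 9 genes past an adjusted p of 0.05 (edgeR, over all genes tested) is given beside that of all genes, and since these libraries chose the genes nothing is read from it. For the wounded HFSC lineage against HFSC, 6 of 9 were called higher and 1 lower, where 21.4% of 14831 tested genes were called higher and 24.7% lower. For wounded EpdSC against EpdSC in CL, 7 were called higher and 1 lower, beside 30.2% and 28.2% of all genes. The median log2 fold change of the 9 was 1.43 and 2.25, beside -0.10 and -0.04 over all genes. Counts of the 9 under other settings, given below, have no such share beside them.

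**Figure D3:**
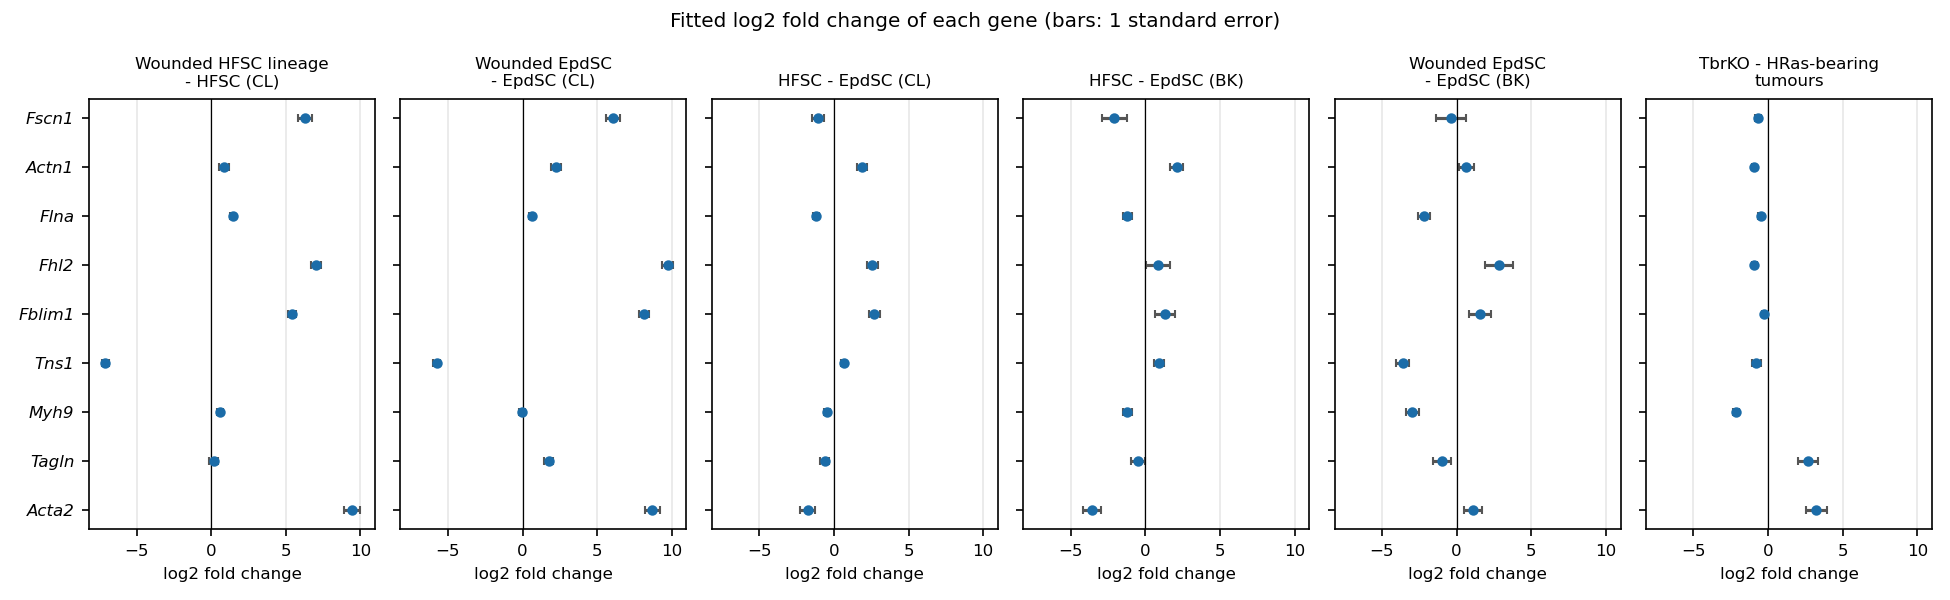
Fitted log2 fold change (x) of each of the 9 genes (y) in 6 comparisons, with bars of 1 standard error. In both CL wound comparisons Fscn1, Fhl2, Fblim1 and Acta2 lie above 5 and Tns1 lies below -5, and in the BK wound comparison Tns1, Myh9 and Flna lie below -2.

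The rest of the pathway was followed in a list of 118 other genes of actin and focal adhesions, set by role, of which 114 were tested in CL. In the wounded HFSC lineage 46 rose and 25 fell, beside 21.4% called higher and 24.7% lower over all genes. Their median log2 fold change was 0.30, beside -0.10 over all genes. The counts by role below were not tested against those shares. Of 18 nucleation genes 10 rose and 1 fell, with a median of 1.03, among them the nucleator Spire1 (3.01 ± 0.41, edgeR adjusted p = 0.000897) and the Arp2/3 subunits Actr2 (2.04 ± 0.37, edgeR adjusted p = 0.00338) and Arpc5 (1.98 ± 0.20, edgeR adjusted p = 0.000269). Of 19 filament turnover genes 15 rose and 2 fell, with a median of 1.37. The monomer-binding Twf1 stood at 37.7 to 39.8 CPM in HFSC and at 434 to 469 after wounding. Dstn, which severs filaments, stood at 452 to 508 CPM and at 2298 to 2432. Enah, which extends filaments at the leading edge, had a log2 fold change of 3.07 ± 0.40. All 4 tropomyosins, which coat filaments, rose, led by Tpm2 at 3.11 ± 0.29 and followed by Tpm4 at 2.19 ± 0.24 and Tpm1 at 1.98 ± 0.26. Among the crosslinkers and filament binders 7 of 16 rose and 3 fell, with Cnn3 at 4.05 ± 0.34 and Cald1 at 3.63 ± 0.62.

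Of 36 core and adaptor genes of focal adhesions 6 rose, 14 fell and 16 were not called in the wounded HFSC lineage. Their median log2 fold change was -0.49, beside -0.10 over all genes, and no difference between roles was tested. The tensins Tns2, at 84.2 to 97.5 CPM in HFSC and 1.93 to 2.22 after wounding, and Tns3, with a log2 fold change of -2.97 ± 0.20, fell with the other adaptor Sorbs3 (-4.40 ± 0.62). Tns4 stood at 429 to 433 CPM and at 362 to 401, a log2 fold change of -0.18 ± 0.18 that was not called. The filamin Flnc had 337 reads in HFSC and 1 read after wounding, a ratio of 311 (exact 95% interval 55.5 to 12330, counting error only). Of 10 contraction genes 1 rose (Myl12a, 0.91 ± 0.19) and 2 fell (Myh14, -3.63 ± 0.22, and the myosin kinase Mylk, -2.07 ± 0.44). The transcription factor gene Srf fell (-1.57 ± 0.25), as did Rhob (-1.65 ± 0.49), while Cdc42 rose (1.48 ± 0.23). Mylk lost its call without either wounded library, at edgeR adjusted p = 0.0585 without library A and 0.0572 without B. Rhob lost it without wounded library A (0.111), wounded library B (0.109) and HFSC library B (0.177).

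Wounded EpdSC of CL showed 54 genes that rose and 26 that fell of the same 114, beside 30.2% called higher and 28.2% lower over all genes. The counts by role were not tested against those shares. The tropomyosins again all rose, with Tpm2 at 10.1 to 17.4 CPM in EpdSC and 687 to 870 after wounding, Tpm4 changing by 1.54 ± 0.23 and Tpm1 by 1.30 ± 0.26. Nucleation genes were 9 up and 4 down of 18, with Spire1 at 4.69 ± 0.47, the formin Fmnl2 at 2.92 ± 0.55 and Arpc4 at 1.91 ± 0.24. Filament turnover genes were 13 up and 1 down of 19, with Evl at 3.73 ± 0.26, Tmsb10 at 3.58 ± 0.21 and Enah at 3.18 ± 0.40. Of 16 crosslinkers 10 rose and 2 fell: Cald1 (6.90 ± 0.75) and Cnn3 (5.54 ± 0.38) rose, and the fimbrin-like bundler Pls1 fell (-4.91 ± 0.52).

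In the contraction group of wounded EpdSC 4 rose and 3 fell of 10. The regulatory light chain Myl9 stood at 0.257 to 0.377 CPM and at 17.2 to 26.1 after wounding. Mylk rose (2.60 ± 0.53) while Myh14 fell (-3.07 ± 0.22). Of the 3 actin isoforms tested, 1 rose, the smooth muscle isoform Actg2, with 1 read in EpdSC and 172 after wounding, a ratio of 158 (exact 95% interval 27.9 to 6261, counting error only). Focal adhesion genes were 10 up and 14 down of 36: Pdlim7 rose by 6.83 ± 0.36, Nexn fell (-4.89 ± 0.84), and Parvb, without a read in EpdSC, was at least 14.5-fold higher against a floor of 3 reads a library. Rhoc rose (4.51 ± 0.77), and Srf (-1.76 ± 0.25) and its cofactor Mkl2 (-1.68 ± 0.27) fell. In the same libraries the immune and fibroblast sums rose as given above. Their part in the calls for Myl9, Mylk, Actg2, Parvb and Evl was not tested.

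**Figure D4:**
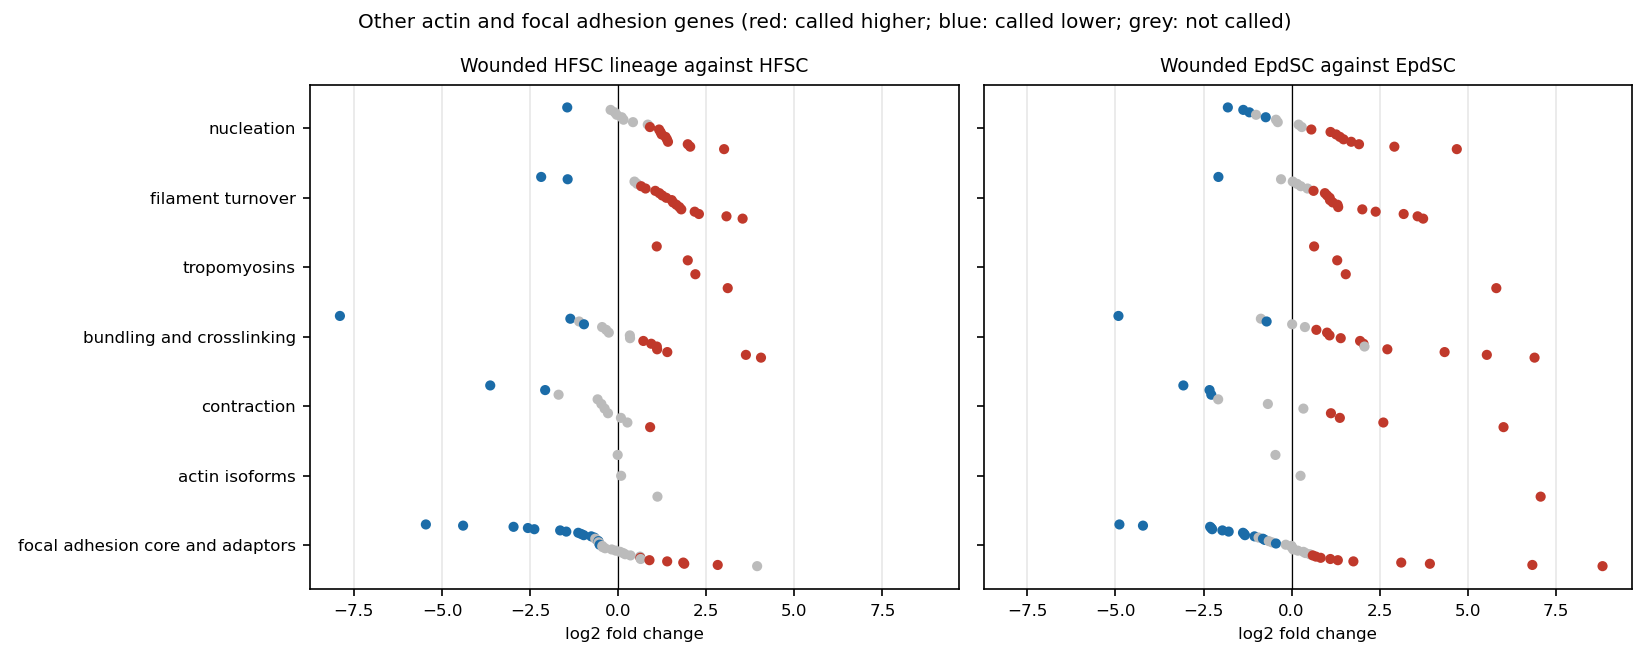
Log2 fold change (x) of 106 of the other genes tested, in 7 roles (y), in both CL wound comparisons, with red points called higher, blue lower and grey not called. The 4 tropomyosins are red in both panels, and 14 of the 36 focal adhesion genes are blue in each. The leftmost point of the first panel is Flnc, whose fitted value rests on 1 read.

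At rest HFSC and EpdSC differed less. Of the 9 genes 3 were called higher in HFSC (Actn1, Fhl2 and Fblim1) and 1 lower (Flna), beside 7.19% and 3.63% of all genes. The log2 difference was 1.87 ± 0.35 for Actn1, 2.57 ± 0.37 for Fhl2, 2.71 ± 0.35 for Fblim1 and -1.22 ± 0.19 for Flna. Of the 114 other genes 21 were higher in HFSC and 4 lower, with Flnc at 5.63 ± 0.86 and Myl9 at 5.15 ± 0.48 higher, and Pls1 at -4.68 ± 0.50 and Limd1 at -1.16 ± 0.22 lower. Counts here rest on single libraries: fewer of the 9 and of the others were called when either EpdSC library was left out. Flnc then had an edgeR adjusted p of 0.0717 without EpdSC library A, and Limd1 had 0.126 without that library, 0.0568 without EpdSC library B and 0.0911 without HFSC library A.

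BK gave a second look at the same resting contrast. Here 1 of the 9 was called higher in HFSC (Actn1) and 2 lower (Acta2, -3.57 ± 0.58, and Myh9, -1.20 ± 0.30), beside 7.91% and 6.47% of all 14663 genes tested. Every one of the 9 had the same sign of difference in BK as in CL. The share of all genes that kept their sign is not given, so nothing is read from this. In BK Fhl2 (0.87 ± 0.80) and Tagln (-0.51 ± 0.47) lay close to 0, and Fscn1 came to -0.02 with 1 library left out. Of 113 other genes 17 were higher and 7 lower, with Myl9 (6.48 ± 0.43), Rhoc (6.08 ± 0.57), Pls1 (-3.77 ± 0.50) and the formin Diaph3 (-2.58 ± 0.35) at the ends. Myl9 was at 26.1 to 29.6 CPM in BK HFSC and 0.278 to 0.328 in EpdSC. The count of others called was 63 without EpdSC library 1, 60 without EpdSC library 2 and 16 without either HFSC library. The number called among the 9 likewise rose without either EpdSC library and fell without either HFSC library.

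The wounded HFSC lineage was also compared with the wounded EpdSC of CL. None of the 9 was called higher in the HFSC lineage and 2 were called lower (Tagln, -2.21 ± 0.31, and Tns1, -0.67 ± 0.19), beside 6.80% and 12.4% of all genes. At an unadjusted p under 0.05, and with DESeq2, 4 of the 9 were called in either direction. Tns1 levels were low in both groups, at 3.43 to 3.68 CPM against 5.58 to 5.75. Of the other genes 6 were higher and 21 lower. Pfn2, a profilin that feeds monomers to growing ends, was higher (1.43 ± 0.21), as was the bundler Pls3 (1.15 ± 0.32). Parvb, an adhesion protein, was lower (-4.88 ± 0.90), and Flnc had 1 read against 95 (ratio 122, exact 95% interval 21.4 to 4866, counting error only). This count moved most with single libraries, to 75 without wounded EpdSC library B, 7 without wounded EpdSC library A and 3 without either wounded HFSC library. Pls3 and Parvb lost their calls without wounded HFSC library A (edgeR adjusted p 0.0975 and 0.114), wounded HFSC library B (0.241 and 0.168) and wounded EpdSC library A (0.0992 and 0.162).

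The wound responses of the lineages were also compared directly, as the change in the HFSC lineage minus that in EpdSC. None of the 9 was called higher and 4 lower, beside 5.31% and 10.5% of all genes. At an unadjusted p under 0.05 there were 6 in either direction, and with DESeq2 5. The difference was -2.72 ± 0.45 for Fhl2, -2.70 ± 0.41 for Fblim1, -1.32 ± 0.26 for Tns1 and -1.59 ± 0.44 for Tagln. For Fhl2 and Fblim1 the wounded levels were alike and the resting levels were not. This comparison too had a trend with gene span, with medians of -0.51 below the lower quartile of span and 0.52 above the upper one. Without the trend Tagln came to -1.16 and Actn1 to -1.84. Of the other genes 7 were called higher and 21 lower. Fewer of the 9 and of the others were called without either EpdSC library or either wounded HFSC library. Without wounded EpdSC library B the number of others called rose and that of the 9 stayed the same.

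The wounded EpdSC library of BK differed from those of CL. Against the BK EpdSC none of the 9 was called higher and 3 lower (Tns1, -3.62 ± 0.45, Myh9, -2.98 ± 0.43, and Flna, -2.17 ± 0.41), beside 1.77% and 6.21% of all genes. At an unadjusted p under 0.05, and with DESeq2, there were 4 in either direction. Fhl2 was at 2.85 ± 0.93, Fblim1 at 1.55 ± 0.75 and Acta2 at 1.08 ± 0.60. Immune and fibroblast sums in this library, 20.9 and 172 CPM, lay below those of the CL wounded EpdSC. Thy1 alone made up 170 CPM of that fibroblast sum. Col1a1 was at 0.107 CPM there, against 248 and 257 in the CL wounded EpdSC. Of the other genes 6 rose and 16 fell, 12 of them of the 36 focal adhesion genes. Cald1 (4.06 ± 0.87) and Tmsb10 (2.60 ± 0.40), which rose in CL, rose here too, and Tns2 (-3.33 ± 0.45) and the talin Tln2 (-3.31 ± 0.47) fell. With 1 wounded library the spread comes from the 2 resting groups: more of the others and of the 9 were called without either EpdSC library.

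In the tumours the integrin gate was compared over 3 genotypes, in a fit that adds gate and genotype. None of the 9 was called in either direction with edgeR, beside 0.152% of 15113 genes called higher in the high gate and 3.00% lower. At an unadjusted p under 0.05 there were 2, and DESeq2 called 3. Of the 116 other genes tested 3 were lower in the high gate, Actg2 (-2.42 ± 0.25), Mylk (-1.60 ± 0.25) and, named only to complete the count, Pfn2 (-1.52 ± 0.14), and none was higher. Fibroblast markers were lower in the same libraries (above), and their part was not tested. No other gene was called without any 1 of the 4 HRas-bearing libraries. More of the others and some of the 9 were called without either TbrKO library.

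The TbrKO tumours differed from the HRas-bearing tumours in both directions. Tagln (2.65 ± 0.67) and Acta2 (3.23 ± 0.72) were called higher, and Fscn1 (-0.68 ± 0.17), Actn1 (-0.94 ± 0.16), Fhl2 (-0.92 ± 0.17) and Myh9 (-2.15 ± 0.18) lower, so 2 and 4 of the 9, beside 21.2% and 20.7% of all genes. The first pair rests on the high integrin TbrKO library: without it Tagln came to 0.98 and Acta2 to 1.47, and without the low one to 3.92 and 4.53, while Fscn1 came to -0.39 without the low one. The fibroblast sums of the TbrKO tumours, 1726 and 5622 CPM, lay within the range of the HRas-bearing ones. The smooth muscle sums, 71.1 and 249 CPM, lay just outside their 80.3 to 244. Notch3 made up 50.83 and 160.9 CPM of these sums. Myh11, at 2.104 and 3.56 CPM in TbrKO, lay below or near the low end of the HRas-bearing range, 3.502 to 24.68. Des, at 2.067 and 1.41 CPM, lay below its HRas-bearing range of 2.108 to 14.52. Cnn1 and Pdgfrb lay within theirs. The part of muscle cells in the Acta2 and Tagln levels was not tested. Of the other genes 20 rose and 41 fell, and nucleation genes were 1 up and 10 down of 18. Pfn2 rose, from a range of 2.11 to 7.55 CPM in the HRas-bearing tumours to values of 31.9 and 90.6. Myl9 rose too, with a range of 5.86 to 32.3 CPM against values of 193 and 96.3. Parvb fell, from a range of 23.0 to 36.7 CPM to 1.14 and 2.38, and Pls1 fell (-4.12 ± 0.82). Fewer of the others and of the 9 were called without the high HRas library, the low HRas library or the high HRas TbrKO library.

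Likeness between genes was measured as the root mean square difference between centred log2(CPM + 1) profiles over the 21 libraries, as a description. Among the 9, Flna and Myh9 were nearest (0.66), followed by Fhl2 and Fblim1 (0.70) and by Fscn1 with Fblim1 (0.96). The measure is not scaled to a gene's own spread, so genes that vary little come out near each other. That spread, on the same scale, was 0.73 for Flna and 0.85 for Myh9, but 2.81 for Fhl2 and 2.35 for Fblim1. Furthest from its nearest among the 9 was Tns1, with 2.76 to Myh9, followed by Tagln, with 1.75 to Actn1, and Acta2, with 1.68 to Fhl2. Among all 17059 genes compared, Fblim1 was nearest to Casq2 (0.43), Fscn1 to Rab31 (0.51) and Tns1 to Ism1 (0.87). The gene closest to Acta2 was Slpi, at 1.41, beside a spread of 3.345 for Acta2 itself.

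Open chromatin was read from peak lists called per pooled sample, without replicates, so the values carry no test. The lists held 55435 peaks for HFSC, 25742 for EpdSC, 54201 for the tumour and 56865 for the wound, from 26825550, 13963471, 29579794 and 11140895 fragments. Over the 9 genes and 10 kb on each side there were 61, 19, 52 and 52 peaks. Tns1 alone held 21 of the 61 in HFSC. Over all 21887 genes the median was 2, 1, 2 and 2 peaks a gene. The window of 300 bases around a start was open for 7 of 8 genes in HFSC, 2 in EpdSC, 5 in the tumour and 6 in the wound. Over all 17492 genes with a listed start these shares were 54.5%, 40.0%, 49.8% and 52.2%. Merged across lists the peaks made 92 regions. Of these 14 were open in all 4 samples, 22 in HFSC alone and 12 in the tumour alone. Another 12 were open in the wound alone and 8 in the tumour and the wound. The share of each pattern over all genes is not given, so nothing is read from these counts.

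Fblim1 had 1 peak in HFSC, none in EpdSC, 6 in the tumour and 4 in the wound. The region shared by tumour and wound nearest to its start lay 1.5 kb inside the gene (chr4:141604291-141604855), at a fold over local background of 3.71 in the tumour and 5.19 in the wound. A second, 13.1 kb inside the gene, had folds of 5.84 and 8.35. Neither was a peak in HFSC or EpdSC, and neither lies in the printed promoter window. No list held a peak over the window of either listed Fblim1 start. Fhl2 had 9, 5, 11 and 13 peaks. The region over its downstream start (chr1:43163558-43164209), which holds the CArG box printed above, was a peak in HFSC, the tumour and the wound. Fold over background there was 6.34, 4.76 and 2.79. In HFSC the region was thus open where Fhl2 RNA was at 1.16 to 1.92 CPM. A peak that reached the window of the upstream start was listed in the wound alone, at a fold of 4.61. It spanned chr1:43196994-43197403, outside the printed stretch and its CArG box.

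Tns1, the gene with the highest RNA level at rest relative to wounds, had 21 peaks in HFSC, 6 in EpdSC, 10 in the tumour and 9 in the wound. Of its regions 11 were open in HFSC alone, the strongest 40.0 kb inside the gene (chr1:74084047-74084995) at a fold of 9.89. The region at its 5′ end was open in all 4 samples, at folds of 2.22 in HFSC, 3.34 in EpdSC, 5.75 in the tumour and 4.09 in the wound. The peak at the start of Tns1 was thus listed in the wound and the tumour, where the 11 regions of HFSC alone were not. Those 11 regions were also absent from the EpdSC list, the shortest at 25742 peaks, while Tns1 RNA stood at 326 and 283 CPM in EpdSC of CL. Acta2 had a region open in all 4 samples 0.9 kb inside the gene, at folds of 6.51, 6.72, 6.40 and 8.15, although its RNA was under 3 CPM in the resting CL libraries. Tagln had no peak over the gene itself in any list and 3 flanking regions.

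**Figure D5:**
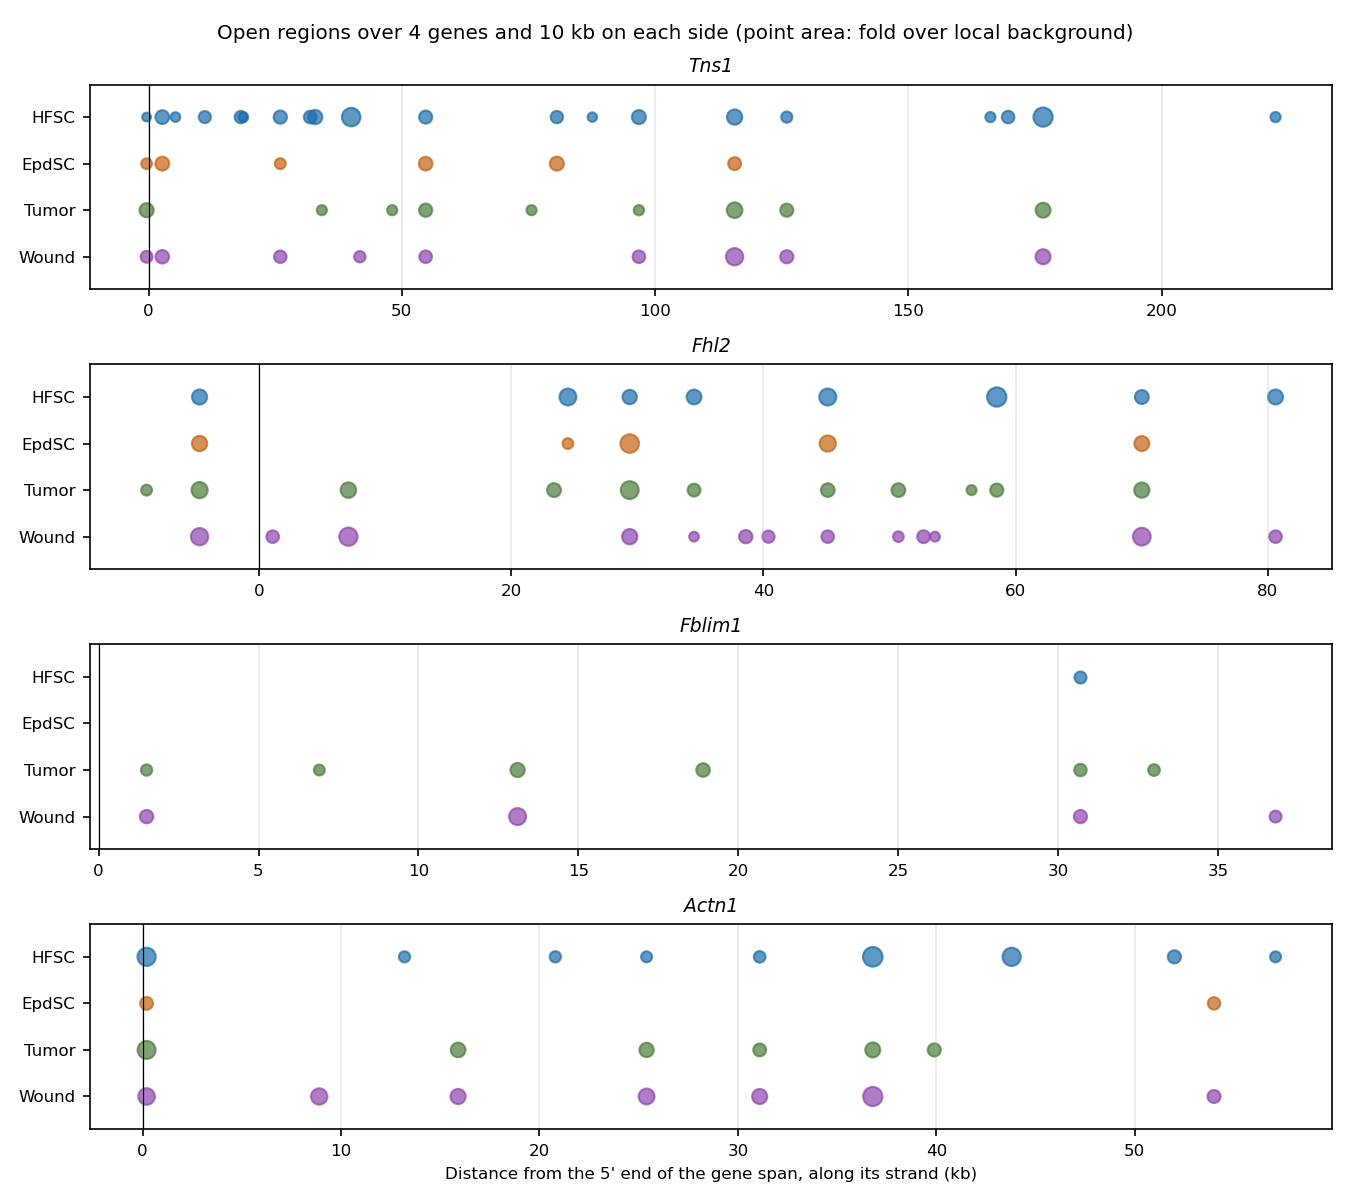
Open regions over Tns1, Fhl2, Fblim1 and Actn1 and 10 kb on each side, as distance in kb from the 5′ end of the gene span (x) in each of the 4 samples (y), with the point area set by the fold over local background. Tns1 has 21 points in HFSC against 9 in the wound, and Fblim1 has none in EpdSC.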

How the data were processed

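RNA was sequenced in 21 libraries and open chromatin in 4 pooled samples of sorted mouse skin cells. The authors deposited gene counts, whole numbers per gene without normalization, aligned with STAR per the submitters' processing notes, which do not give the counter's handling of reads with several matches. The deposited ATAC-seq peak lists give, per the file headers, a pileup signal, a fold enrichment ratio and −log10 p and q values from MACS2 2.1.1.20160309 at a q cutoff of 0.05, with Bowtie and Picard also named in those notes and mm10 as the build.

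The counts were scaled to CPM (by library size after TMM) over all 21 libraries for levels. For fold changes each set was fitted separately with edgeR 4.0.16 (limma 3.58.1, R 4.3.3): TMM, filterByExpr, quasi-likelihood F test, Benjamini-Hochberg adjustment over all genes tested and a threshold of 0.05. The CL and BK fits use group alone, and the tumour fit adds genotype and gate. "Called" means past that threshold, and each ± is 1 standard error. Count columns were tied to a sample by title, except 3 whose names differ and which share set and number with 1 title. That of the wounded BK library has an added suffix that the labels do not explain.

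The 9 genes, the list of 118 other genes and the marker lists were chosen with earlier results of these data known. Named other genes are the up to 3 called genes a role with the largest fold change in each CL wound comparison, and the up to 2 in each direction elsewhere, plus close relatives of the 9. For 1 role of that list the group counts are not reported here. Of the listed symbols 4 were matched by an older name. Peaks were assigned to a gene when they overlapped its RefSeq span (GRCm38.p6) or 10 kb on either side. Alternatives were DESeq2 1.42.0, RLE scaling, no filter, fits on the compared groups only, the per-library tables, a replicate block, a removed trend with gene span, each library left out, narrower gene windows and a stricter peak threshold. The fit was tested on simulated data, and figures were drawn with matplotlib.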

Additional observations from a re-analysis of the deposited data

Results flagged for a closer look

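The wound response differed between the HFSC lineage and EpdSC of CL for 17 of the named other genes, by edgeR's test of the difference itself, and all values here are log2 units of the HFSC lineage response minus the EpdSC response. The 9 genes are not listed, since these libraries chose them. The difference was positive for Pls1 (4.46, edgeR adjusted p = 0.00636), which fell in EpdSC, for the tropomodulin Tmod3 (1.70, edgeR adjusted p = 0.0395), for Limd1 (1.41), for Mkl2 (1.39) and for Dstn (0.97). Tmod3 lost its call without any 1 of the 4 libraries of HFSC and EpdSC and without either wounded HFSC library, with edgeR adjusted p from 0.084 to 0.137.

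The difference was negative for genes that rose further in EpdSC or fell further in the HFSC lineage: Tmsb10 (-1.79), the LIM adaptor Fhl3 (-2.08), Tns3 (-2.21), Tpm2 (-2.70), Tns2 (-3.18), Cald1 (-3.27), Evl (-3.27), Pdlim7 (-4.01), Mylk (-4.68), Rhoc (-5.15), Myl9 (-6.30, edgeR adjusted p = 0.00105) and Flnc (-12.24, edgeR adjusted p = 0.00153). The Flnc value depends on the prior count of the fit, since 1 group held 1 read. Mylk went in opposite directions, at -2.07 in the HFSC lineage and 2.60 in EpdSC, on low levels. It was at 3.65 CPM in HFSC and 0.869 in the wounded HFSC lineage. In EpdSC it was at 0.212 CPM (8 reads), and in wounded EpdSC at 1.29 (56 reads). Its call in the HFSC lineage was lost without either wounded library. The part of immune and fibroblast RNA in the EpdSC change was not tested. Tns2 and Tns3, relatives of Tns1, fell further in the HFSC lineage (-5.46 and -2.97) than in EpdSC (-2.28 and -0.76), the order also seen for Tns1.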

How the results depend on the processing

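Of 855 recomputed values of the 9 genes, 781 stayed within the spread of the main value and 74 moved beyond it. None changed sign where the main value was past the threshold. Myh9 in wounded EpdSC of CL, near 0 in the main fit, went from -0.01 to 0.79 without the trend with gene span. Other values near 0 changed sign too, as for Acta2 between the integrin gates (-2.03 to 0.35). So did Fscn1 in the difference of the wound responses (-0.30 to 0.96). Counts of other genes called in both CL wound comparisons stayed within 1.5 times of 71 and 80 under every alternative tried, and no other named call reversed except that Tns3 in wounded EpdSC came to 0.27 once the trend with gene span was removed, an alternative chosen after seeing the data. For the wounded groups of CL against each other (27 called) the count was 48 without a filter on low counts, 57 with DESeq2, 8 with only the compared groups, 17 with the replicate block and 3 to 75 with 1 library left out. The difference of the wound responses (28) gave 50 with DESeq2 and 15 to 70, and resting HFSC against EpdSC of CL (25) gave 9 to 22. In BK, HFSC against EpdSC (24) gave 16 to 63, and wounded EpdSC (22) gave 47 with DESeq2, 8 with only the compared groups, 13 with the replicate block and 70 to 76. In tumours the gate (3) gave 11 with DESeq2, 0 with only that term in the fit and 0 to 24, and TbrKO (61) gave 36 with only that term and 20 to 68.

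Libraries with the same letter deviated together in the wounded groups of CL (correlation 0.66) and not in the other pairs of CL groups (-0.34 to 0.10) or in BK (-0.28), and the labels do not say what the letters mark. In the comparison of those wounded groups the replicate block left 1 of the 9 called in place of 2. The replicate block left 70 called in the wounded HFSC lineage and 80 in wounded EpdSC, and a crossed replicate block in BK gave 39, with 6 of the 9. Peaks over the 9 genes with 2 kb upstream in place of 10 kb were 55 in HFSC, 17 in EpdSC, 45 in the tumour and 43 in the wound, and past −log10 q of 5 they were 48, 14, 42 and 42. With 2 libraries or fewer a group, small differences could not be detected, and the ATAC samples have no replicate.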
